A study of Mus musculus with 2 samples.

Results

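The spindle assembly checkpoint genes and the activators of the anaphase-promoting complex were examined in mouse embryos at the 4 to 8-cell stage. The 10 genes were taken by symbol, and each was found among the 23418 rows of the count table. They include the kinases Ttk and Bub1, the checkpoint protein Bub1b, the scaffold Bub3 and the Mad proteins Mad1l1 and Mad2l1. The others are the activators Cdc20 and Fzr1 and the chromosomal passengers Aurkb and Incenp. The siDnmt1 group was 1 pool of 20 C57BL/6 embryos injected with siRNA to Dnmt1, which copies methylation onto replicated DNA. The siScrambled group was 1 pool of 20 C57BL/6 embryos injected with a scrambled siRNA. The labels name no genetic change in either pool, and give no sex for the embryos. Messenger RNA was caught on oligo-dT beads and its cDNA was amplified by 20 PCR cycles. With 1 library per group no difference has a replicate check and no test across libraries could be made. The 95% intervals below cover counting error and nothing else, and PCR copies without molecular identifiers are not independent molecules.

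The spindle checkpoint holds a cell in metaphase until every chromosome is attached to the spindle. At an unattached kinetochore, Ttk (also called Mps1) phosphorylates the docking protein Knl1, which recruits Bub3 together with Bub1 and Bub1b (BubR1). Mad1l1 then converts Mad2l1 to the form that joins Bub1b, Bub3 and Cdc20 in the mitotic checkpoint complex, the inhibitor of the anaphase-promoting complex (APC). Once the signal stops, Cdc20 activates the APC, a ubiquitin ligase that marks securin and cyclin B for destruction. Fzr1 (Cdh1) takes over as activator at mitotic exit and in G1. Aurkb, held by its scaffold Incenp, destabilises wrong attachments at the centromere. Early cleavage divisions start out with transcripts made in the oocyte.

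The siDnmt1 library held 12236615 counts and the siScrambled library 11675483, of which Rn45s, the ribosomal RNA precursor, held 37.3% in siDnmt1 and 29.9% in siScrambled. The targeted transcript, Dnmt1, had 687 counts in siDnmt1 and 847 in siScrambled, 1.23-fold lower (1.11 to 1.37). Its log2 ratio was -0.30, and 38.3% of the genes compared below had one as low. The decrease in Dnmt1 was thus not set apart from the spread of other genes, and these counts do not establish a knockdown. All 6 markers of cleavage embryos were detected in both libraries, with summed counts of 5794 in siDnmt1 and 7046 in siScrambled. The 7 oocyte markers summed to 176 counts in siDnmt1 and 155 in siScrambled, and the 4 trophectoderm markers to 129 in siDnmt1 and 219 in siScrambled. Within the cleavage, oocyte and trophectoderm lists alike, some genes were higher and others lower in siDnmt1, so the sums show no uniform shift. Of the 8 markers of cumulus and granulosa cells, 7 were at 0 in both libraries and Star had 6 counts in siDnmt1 and 0 in siScrambled. The part of these markers in the differences was not tested. In pooled embryos, fewer cells in a given phase and less RNA per cell cannot be told apart.

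The 10 genes did not differ in a single direction. Bub1 and Bub1b passed 2-fold upward in siDnmt1, whereas Bub3, which carries both to the kinetochore, and Fzr1 passed it downward. The other 6 genes lay within 2-fold. Genes were compared at a mean of 20 counts or more over the libraries, which all 10 genes passed, and the 2-fold rule was applied to log2((siDnmt1 + 5)/(siScrambled + 5)). Of the 7315 genes compared, 12.5% passed 2-fold upward and 16.7% downward. The 2 of 10 genes that passed in each direction are near that background, so the counts are no result about the genes as a group. The median log2 ratio of the 10 genes was -0.39, beside -0.02 for all genes compared, and the middle 50% of all genes spanned -0.67 to 0.57.

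**Figure D1:**
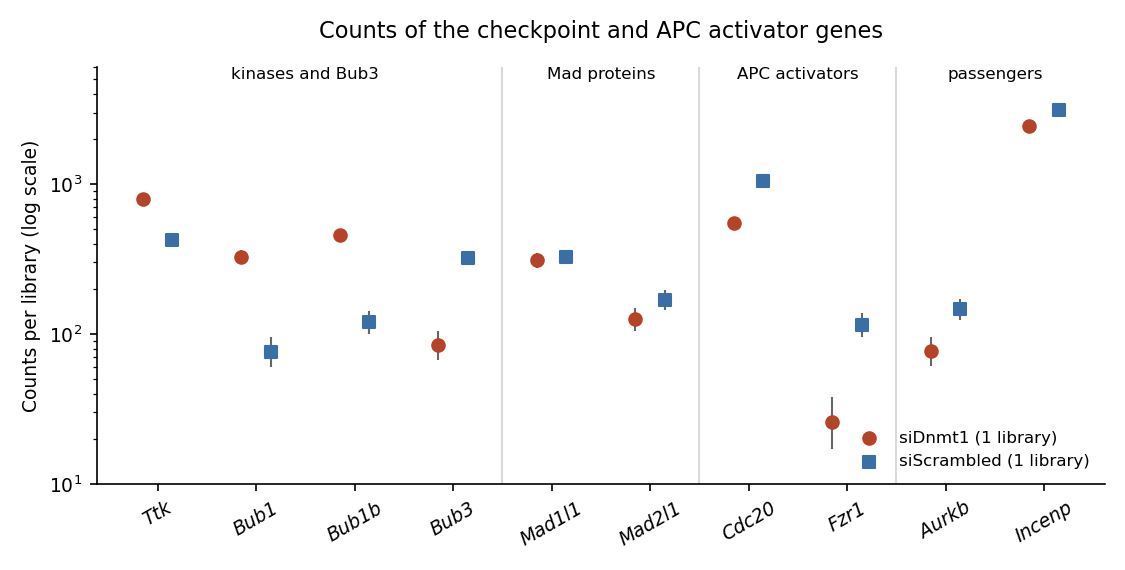
Counts of the 10 genes in the siDnmt1 library (circles) and the siScrambled library (squares) on a log axis, grouped by role, with vertical lines for exact 95% Poisson intervals of each count. Bub1, Bub1b and Ttk are higher in siDnmt1, Mad1l1 is nearly level at 311 counts in siDnmt1 and 326 in siScrambled, and the other 6 are lower.

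Bub1, the kinase that marks centromeric histone H2A and docks the other checkpoint proteins, had 328 counts in siDnmt1 and 76 in siScrambled. This was 4.32-fold higher (3.35 to 5.61), with a log2 ratio of 2.04 that 2.54% of the genes reached. Bub1b, the checkpoint protein that binds and blocks the APC as part of the mitotic checkpoint complex, had 457 counts in siDnmt1 and 120 in siScrambled. It was 3.81-fold higher (3.11 to 4.70), with a log2 ratio of 1.89 that 3.06% of the genes reached. Both genes lay in the range of means from 100 to 500 counts, in which 9.85% of genes passed 2-fold upward.

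Ttk, which acts upstream of both, had 799 counts in siDnmt1 and 426 in siScrambled. It was 1.88-fold higher (1.67 to 2.11), under the 2-fold rule, with a log2 ratio of 0.90 that 14.7% of the genes reached. Ttk, Bub1 and Bub1b were thus all on the higher side, by unequal amounts. The count of Ttk per count of Bub1, taken per transcript length, was 2.90 in siDnmt1 and 6.68 in siScrambled.

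Bub3, a WD40 protein that brings Bub1 and Bub1b to phosphorylated Knl1, went the other way. It had 84 counts in siDnmt1 and 321 in siScrambled, 3.82-fold lower (2.997 to 4.92). Its log2 ratio was -1.87, and 5.22% of the genes had one as low. Among genes with a mean of 100 to 500 counts, as Bub3 has, 14.5% passed 2-fold downward. Because numerator and denominator come from the same library, ratios between genes do not depend on how the libraries are scaled. They remain subject to the trend of ratios with transcript length given below, where the genes differ in length. Per transcript length, Bub1b stood to Bub3 at 3.29 in siDnmt1 and 0.226 in siScrambled, a 14.6-fold difference (10.6 to 19.9). Bub1 stood to Bub3 at 2.53 in siDnmt1 and 0.154 in siScrambled, a 16.5-fold difference (11.7 to 23.3). Each of these differences is the product of the single-gene ratios already given, so it is not separate evidence. No background over other gene pairs was computed. In the siDnmt1 library the transcripts of both partners exceeded that of Bub3, and in the siScrambled library Bub3 exceeded both. Bub1 and Bub1b kept close to each other, at 0.770 in siDnmt1 and 0.679 in siScrambled, and the interval of that difference spanned equality (0.823 to 1.56-fold).

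**Figure D2:**
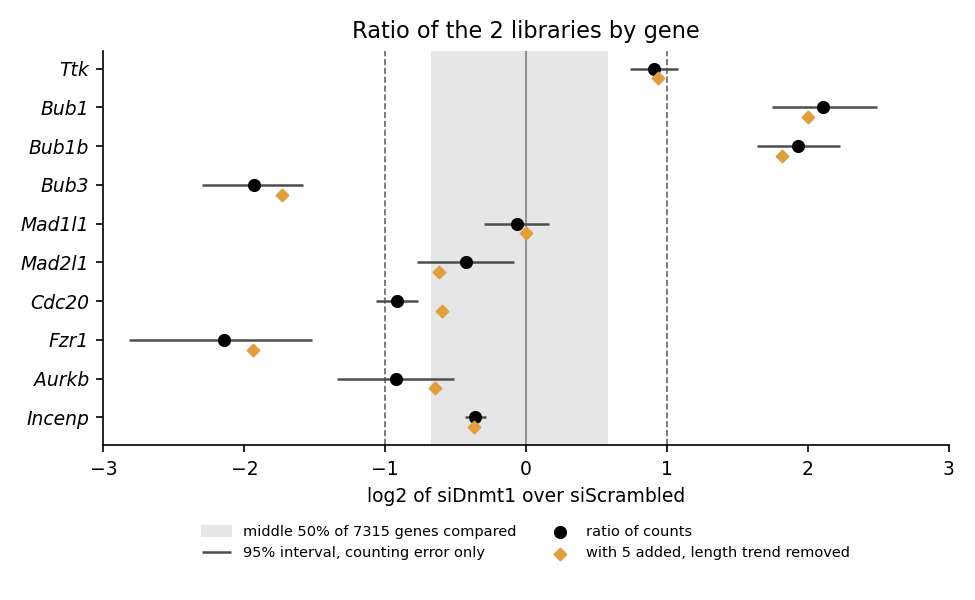
Ratio of the siDnmt1 to the siScrambled count of each gene on a log2 axis (black points, with 95% intervals of counting error), and the log2 ratio corrected for the trend with transcript length (diamonds). The grey band is the middle 50% of the 7315 genes compared and dashed lines mark 2-fold, which Bub1, Bub1b, Bub3 and Fzr1 pass by either measure.

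The promoter windows of the 4 genes past 2-fold are shown because mitotic genes are known to be switched by the cell cycle homology region (CHR), a short element bound by the MuvB complexes, and because CpG sites are the substrate of Dnmt1. Each window runs from 250 bases before to 50 bases after a RefSeq transcript start, 5′ to 3′ on the gene's strand, and capitals mark the CHR letters TTTGAA on either strand or the variant TTCGAA. Coordinates are those of GRCm38.p6, not of mm9, the build in the submitters' notes. The Bub1 window is chr2:127831810-127832109 on the minus strand, and that of Bub1b is chr2:118597961-118598260 on the plus strand. The window of Bub3 is chr7:131560120-131560419 on the plus strand, the first of its 2 windows. Fzr1 lies on the minus strand, with its window at chr10:81378321-81378620.
Bub1: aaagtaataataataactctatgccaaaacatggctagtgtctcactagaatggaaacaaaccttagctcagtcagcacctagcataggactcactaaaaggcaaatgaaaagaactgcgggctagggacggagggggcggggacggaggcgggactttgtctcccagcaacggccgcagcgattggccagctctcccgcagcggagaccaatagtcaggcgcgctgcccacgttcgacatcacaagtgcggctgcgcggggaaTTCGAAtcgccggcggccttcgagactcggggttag
Bub1b: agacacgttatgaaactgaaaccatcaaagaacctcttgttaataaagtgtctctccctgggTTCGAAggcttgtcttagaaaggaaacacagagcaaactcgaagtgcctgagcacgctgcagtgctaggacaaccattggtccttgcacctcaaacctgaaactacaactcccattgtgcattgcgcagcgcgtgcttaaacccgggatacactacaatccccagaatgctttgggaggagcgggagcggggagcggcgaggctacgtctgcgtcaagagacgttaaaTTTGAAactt
Bub3: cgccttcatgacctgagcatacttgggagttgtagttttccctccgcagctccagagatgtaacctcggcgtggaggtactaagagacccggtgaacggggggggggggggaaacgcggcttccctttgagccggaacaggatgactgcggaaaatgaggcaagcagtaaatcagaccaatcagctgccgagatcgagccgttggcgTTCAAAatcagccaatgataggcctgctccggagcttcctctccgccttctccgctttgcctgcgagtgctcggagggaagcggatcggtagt
Fzr1: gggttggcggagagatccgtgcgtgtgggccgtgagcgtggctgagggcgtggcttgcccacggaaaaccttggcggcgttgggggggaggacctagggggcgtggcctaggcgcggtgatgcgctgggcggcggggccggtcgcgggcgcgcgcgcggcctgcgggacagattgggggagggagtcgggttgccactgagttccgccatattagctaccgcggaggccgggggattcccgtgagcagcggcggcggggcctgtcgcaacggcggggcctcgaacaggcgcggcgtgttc

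Windows were found for 8 of the 10 genes. TTTGAA occurred on either strand in 4 of these 8, namely Bub1b, Bub3, Ttk and Cdc20, and in 20.2% of all 27025 genes with a window. The self-complementary variant TTCGAA, searched after the sequences had been read, occurred in Bub1 and Bub1b and in 1.80% of all genes. Because it was picked from these windows, its occurrence here cannot be weighed against that share. No match of TTTGAA overlapped one of TTCGAA. Bub1 had its match at position 15 after the start, and Bub1b had matches at position 41 after the start and position -188 before it. That of Bub3 began at position -43 and that of Cdc20 at position -18, while Ttk had one at position 8. The Fzr1 window held neither set of letters. A gene higher in siDnmt1 (Bub1b) and one lower (Bub3) thus both carried TTTGAA. CpG sites numbered 23 in the Bub1 window, 15 in Bub1b, 21 in the Bub3 window shown and 40 in Fzr1, against a median of 7 over 32851 windows. The other window of Bub3, from a start further downstream, held 27. Among the genes within 2-fold, Ttk and Cdc20 held 25 each and Mad2l1 held 17. Mad1l1 held 25 in its more upstream window and 3 in the other. A number of CpG sites above the median was thus not particular to the genes past 2-fold. Methylation of these windows was not analysed here.

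**Figure D3:**
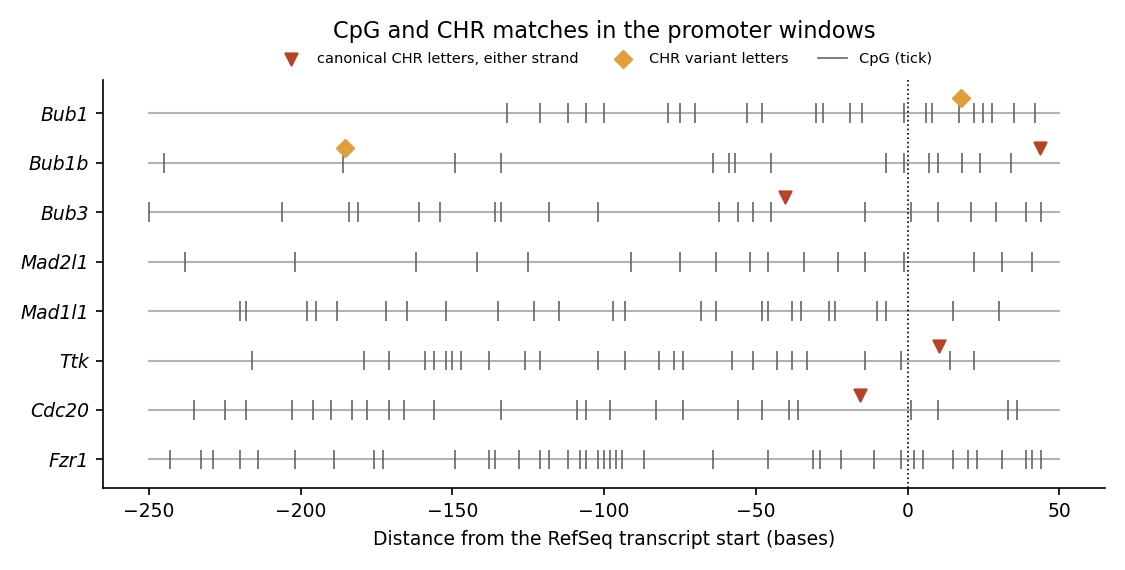
Positions of CpG sites (ticks) and of CHR letters (triangles for the canonical form, diamonds for the variant) along the promoter windows of 8 genes, in bases from the RefSeq transcript start (dotted line). Where a gene has 2 windows the more upstream start is drawn. CpG sites are most numerous in Fzr1 (40). Canonical CHR letters are seen in Bub1b, Bub3, Ttk and Cdc20, and the variant in Bub1 and Bub1b.

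Both Mad genes lay within 2-fold. Mad1l1, the kinetochore-bound partner that catalyses the conversion of Mad2l1, had 311 counts in siDnmt1 and 326 in siScrambled, 1.05-fold lower with an interval that spans equality (0.895 to 1.23). Its sign depended on the processing, with a log2 ratio of -0.07 as deposited and 0.03 at equal totals without Rn45s. The other scalings left it negative. It was 0.002 with the length trend removed and 0.16 with the GC trend removed. Mad2l1, the protein that is loaded onto Cdc20, had 125 counts in siDnmt1 and 168 in siScrambled, 1.34-fold lower (1.06 to 1.71). Bub1b and Mad2l1 enter the same complex. The count of Bub1b per Mad2l1 was 5.12 times as high in siDnmt1 as in siScrambled (3.77 to 6.96). That value is not corrected for the trend with transcript length. Removing the trend took the log2 ratio of Mad2l1 from -0.41 to -0.62 at a length of 7557 nt. Its other coding transcript, of 1725 nt, was not tried in that correction.

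Both APC activators were lower in siDnmt1, by unequal amounts. Cdc20, the activator that the checkpoint inhibits, had 554 counts in siDnmt1 and 1045 in siScrambled. This was 1.89-fold lower (1.70 to 2.09), under the 2-fold rule, with a log2 ratio of -0.91 that became -0.60 once the trend with transcript length was removed. Fzr1 had 26 counts in siDnmt1 and 115 in siScrambled, 4.42-fold lower (2.87 to 7.06), with a log2 ratio of -1.95. Its mean count was the lowest of the 10 genes. Among genes with a mean of 20 to 100 counts, its own range, 24.0% passed 2-fold downward. Cdc20 per Fzr1, taken per transcript length, was 36.3 in siDnmt1 and 15.5 in siScrambled, a 2.34-fold difference (1.51 to 3.63). Cdc20 per Bub1b, the activator against its inhibitor, was 2.48 in siDnmt1 and 17.8 in siScrambled, 7.18-fold lower in siDnmt1. As siDnmt1 over siScrambled this was 0.139 (0.111 to 0.174). The value is not corrected for the trend with transcript length. Removing that trend took the log2 ratio of Bub1b from 1.89 to 1.82 and that of Cdc20 from -0.91 to -0.60.

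The chromosomal passengers were lower within 2-fold. Aurkb, the kinase of the complex, had 77 counts in siDnmt1 and 146 in siScrambled, 1.90-fold lower (1.43 to 2.53). Incenp, the scaffold that binds and activates it, had 2432 counts in siDnmt1 and 3121 in siScrambled, 1.28-fold lower (1.22 to 1.35). Its log2 ratio was -0.36 as deposited, -0.27 at equal totals without Rn45s and -0.22 with the GC trend removed. Both shifts exceeded its counting interval, so the size of this small decrease depended on the processing. Uncorrected for length, Incenp alone made up 46.8% of the summed counts of the 10 genes in siDnmt1 and 53.2% in siScrambled. The sums were 5193 in siDnmt1 and 5864 in siScrambled (ratio 0.886, 0.853 to 0.919). Without Incenp the other 9 genes summed to 2761 in siDnmt1 and 2743 in siScrambled (ratio 1.01, 0.954 to 1.06). As deposited, the total of those 9 genes was thus level to within counting error. Scaled to equal totals without Rn45s, it was higher in siDnmt1, at 360 against 335 in siScrambled. By plain counts, Bub1 was 4.32-fold higher and Fzr1 4.42-fold lower. With the pseudocount, the log2 ratio of Fzr1 was -1.95, which falls short of 4-fold.

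**Figure D4:**
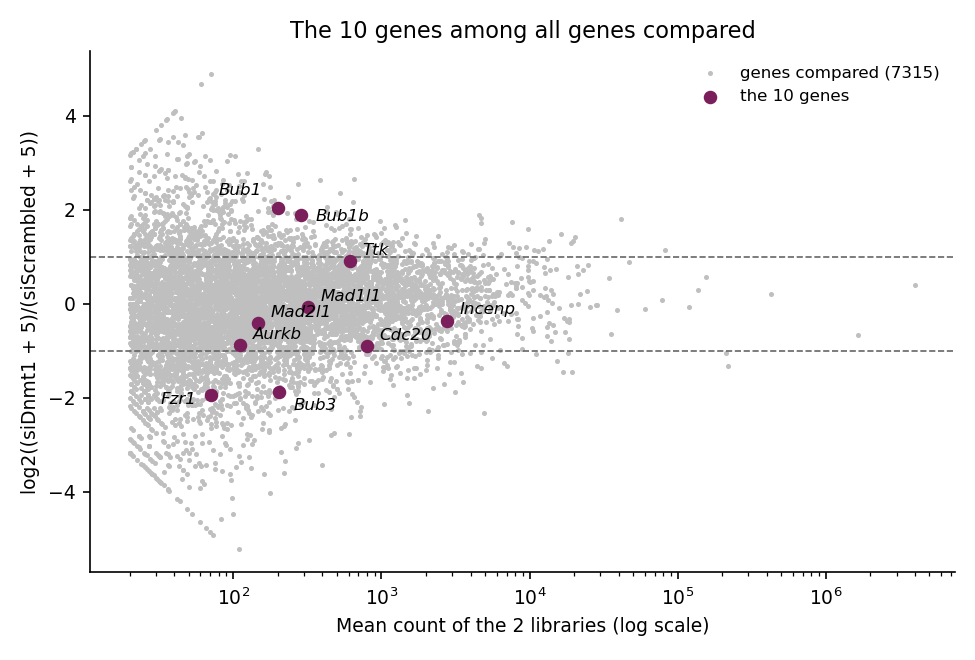
Log2 ratio of siDnmt1 over siScrambled, with 5 counts added to each, against the mean count on a log axis for the 7315 genes compared (grey) and the 10 genes (purple). Dashed lines mark 2-fold. Other genes of similar mean count lie as far from 0 as Bub1, Bub1b, Bub3 and Fzr1, and their number was not counted.

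Levels per kilobase of transcript put the genes in a different order in each library. In siDnmt1 the order was Incenp with 752 counts per kb, Cdc20 with 309, Ttk with 278, Bub1b with 125, Mad1l1 with 118, Bub1 with 95.9, Aurkb with 39.5, Bub3 with 37.9, Mad2l1 with 16.5 and Fzr1 with 8.51. In siScrambled it was Incenp with 964 counts per kb, Cdc20 with 583, Ttk with 148, Bub3 with 145, Mad1l1 with 123, Aurkb with 74.9, Fzr1 with 37.6, Bub1b with 32.7 and Mad2l1 and Bub1 with 22.2 each. Incenp, Cdc20 and Ttk led in both libraries. Bub1b ranked 4 in siDnmt1 and 8 in siScrambled, Bub1 ranked 6 in siDnmt1 and 10 in siScrambled, and Bub3 ranked 8 in siDnmt1 and 4 in siScrambled. Counting intervals of neighbours overlapped in siDnmt1 for Cdc20 and Ttk, for Bub1b and Mad1l1, for Mad1l1 and Bub1, and for Aurkb and Bub3. In siScrambled they overlapped for Ttk and Bub3, for Bub3 and Mad1l1, for Fzr1 and Bub1b, and for Mad2l1 and Bub1. The place of Mad2l1 rests on its annotated length, since its coding transcripts measure 7557 and 1725 nt. With the shorter one it had 72.5 counts per kb in siDnmt1 and 97.4 in siScrambled.

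Ratios varied with transcript length over all genes. The 1819 genes with transcripts of at most 2270 nt had a median log2 ratio of -0.48, and the 1818 genes of at least 4931 nt had 0.19. Bub1 (3421 nt) and Bub1b (3668 nt) were longer than Bub3 (2218 nt) and Fzr1 (3057 nt), and the median of all genes was 3392.5 nt. All 4 stayed past 2-fold after the length trend was removed, with log2 ratios of 2.00 for Bub1, 1.82 for Bub1b, -1.73 for Bub3 and -1.94 for Fzr1. GC content was 41.0% in Bub1, 50.4% in Bub1b, 50.2% in Bub3 and 59.9% in Fzr1, and with the GC trend removed the log2 ratio of Fzr1 was -1.60. No stretch of 50 bases in the transcripts of Bub1, Bub1b, Mad1l1, Ttk, Fzr1, Aurkb or Incenp occurred in a transcript of another annotated gene. For Cdc20, 11.6% of such stretches did, mostly in Gm7856, and its exons overlap those of Elovl1 on the other strand over 53 bases, so its count is less certain than the others. The share was 0.922% for Bub3 and 1.11% for Mad2l1. Fzr1 overlapped Mfsd12 on the other strand over 4 bases, and Mfsd12 itself had 2 counts in siDnmt1 and 14 in siScrambled.

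Partners of the 10 genes were described from 6 lists, whose 74 distinct genes past the minimum mean had a median log2 ratio of -0.01. The 2-fold rule took 3 of them upward (4.05%) and 8 downward (10.8%), shares under the 12.5% and 16.7% of all genes compared, so neither these counts nor those of the single lists are read as a result about the lists. Among 12 checkpoint partners, which recruit or silence the signal at kinetochores, 0 passed 2-fold upward and 1 downward, with a median log2 ratio of 0.04. Zwilch, of the complex that brings dynein to kinetochores, had 140 counts in siDnmt1 and 301 in siScrambled, 2.15-fold lower (1.75 to 2.65). Its log2 ratio was -1.08, and -0.99 at equal totals without Rn45s, where it no longer passed 2-fold. Zw10, another subunit of that complex, was the highest of the list at 158 counts in siDnmt1 and 99 in siScrambled. Casc5, the older symbol of the docking protein Knl1, had 283 counts in siDnmt1 and 220 in siScrambled. Of 5 genes of the outer kinetochore past the minimum, 0 passed 2-fold, from Ndc80 with 2421 counts in siDnmt1 and 3492 in siScrambled to Nsl1 with 121 in siDnmt1 and 80 in siScrambled.

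Among 14 APC subunits and their E2 enzymes, 1 passed 2-fold upward and 2 downward, shares of 7.14% and 14.3% beside the 12.5% and 16.7% of all genes compared. The median log2 ratio was -0.27 as deposited. It was 0.23 with the trend on the length of the principal transcript removed, 0.01 at a mean of at least 100, and -0.38 with the trend on the longest transcript removed. Anapc4, a subunit of the platform, had 1064 counts in siDnmt1 and 232 in siScrambled, 4.59-fold higher (3.98 to 5.31). Anapc2, the cullin subunit of the catalytic core, had 110 counts in siDnmt1 and 410 in siScrambled, 3.73-fold lower (3.01 to 4.64). Anapc11, the RING subunit that pairs with Anapc2, had 9 counts in siDnmt1 and 44 in siScrambled, 4.89-fold lower (2.36 to 11.4). Both genes of the core pair were thus lower in siDnmt1, and Anapc4 was higher.

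Of 15 APC inhibitors and substrates, 0 passed 2-fold upward and 1 downward, with a median log2 ratio of 0.17. Gmnn, the replication licensing inhibitor geminin, had 21 counts in siDnmt1 and 102 in siScrambled, 4.86-fold lower (3.02 to 8.18). Espl1, the separase that cuts cohesin at anaphase, had 8195 counts in siDnmt1 and 4135 in siScrambled, 1.98-fold higher (1.91 to 2.06), just under the rule, with a log2 ratio of 0.99 that was 1.08 at equal totals without Rn45s. Of 11 genes of the passenger complex and centromere cohesion, 1 passed in each direction, with a median of 0.12. Sgol1, the shugoshin that protects centromeric cohesin, had 55 counts in siDnmt1 and 25 in siScrambled and lay on the threshold, with a log2 ratio of 1 that was 0.94 at equal totals. Pds5b, a cohesin regulator, had 40 counts in siDnmt1 and 204 in siScrambled, 5.10-fold lower (3.62 to 7.35).

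Among 18 genes of mitotic phosphatases and mitotic entry, 1 passed 2-fold upward and 3 downward, with a median of -0.04. Ppp1cc, a catalytic subunit of protein phosphatase 1, had 422 counts in siDnmt1 and 178 in siScrambled, 2.37-fold higher (1.99 to 2.84). Cdk1, the mitotic kinase, had 2511 counts in siDnmt1 and 6319 in siScrambled, 2.52-fold lower (2.40 to 2.64). Ppp2r2d, a regulatory subunit of phosphatase 2A, had 146 counts in siDnmt1 and 361 in siScrambled, 2.47-fold lower (2.03 to 3.02). Ppp2r5a, another, had 41 counts in siDnmt1 and 90 in siScrambled, 2.20-fold lower (1.501 to 3.26). Its log2 ratio was -1.05, and -0.96 at equal totals without Rn45s.

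**Figure D5:**
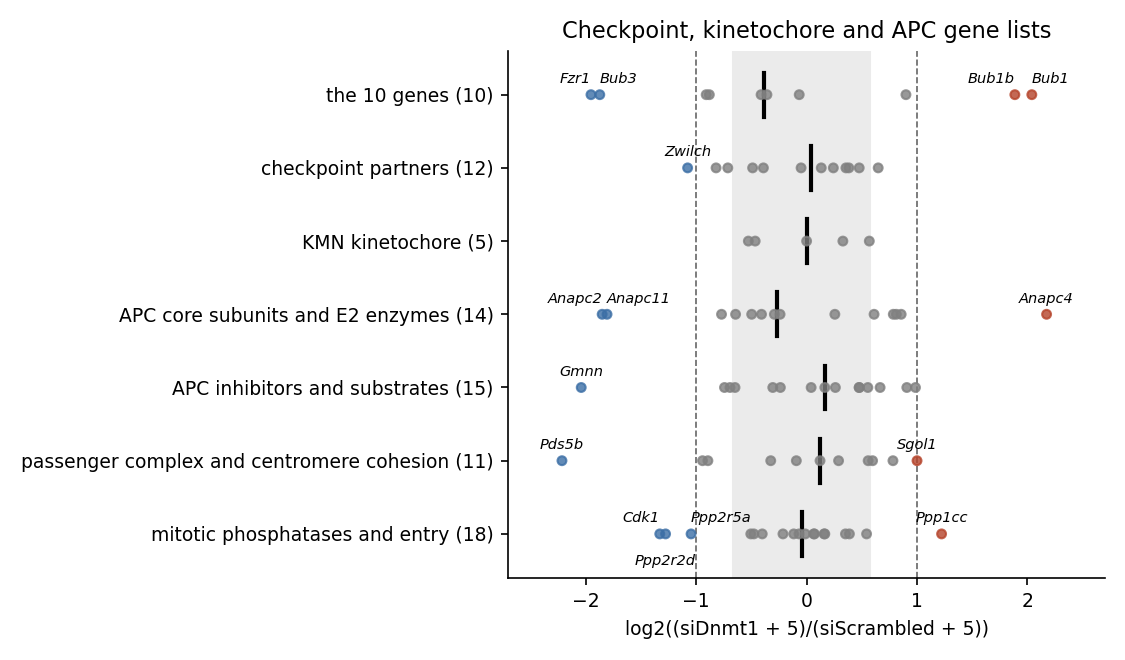
Log2 ratio of siDnmt1 over siScrambled, with 5 counts added to each, for the 10 genes and 6 partner lists, with the number of genes at a mean of 20 counts or more in brackets. Bars are list medians, the grey band is the middle 50% of all genes compared, and genes at least 2-fold apart are named, such as Anapc4 and Anapc2 on either side.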

How the data were processed

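The authors deposited 1 table of whole-number counts per gene symbol, with 1 column for the siDnmt1 library and 1 for the siScrambled library. The submitters' processing notes list the mm9 build and, without versions, HTSeq, HISAT2, Trim Galore and DESeq2. Annotation, strand setting and the handling of multiply mapped reads are not given in the sources consulted. The file is named as DESeq2-normalised, yet no whole number from 1 to 59 was skipped in either column (0 skipped). Values scaled down, or scaled up only slightly, and then rounded would also skip none. The check therefore cannot settle whether the values were scaled. The deposited values were treated as counts.

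With 1 library per group no p-value was computed. Ratios of counts have 95% Clopper-Pearson intervals, levels per kilobase exact Poisson intervals, and ratios between genes intervals from a normal approximation on the log scale. Log2 ratios carry a pseudocount of 5, which shrinks those of weakly counted genes, and the minimum mean was 20 counts. Transcript length and GC content came from the longest APPRIS principal transcript in GENCODE M21, on GRCm38, for 99.4% of the 7315 genes, and promoters from RefSeq. Trends were removed by lowess (span 0.3). Alternatives comprised no filter, a minimum mean of 100, pseudocounts of 1 and 20, a 4-fold threshold, 4 scalings (equal totals, equal totals without Rn45s, median log2 ratio 0, edgeR TMM) and the length trend. The GC trend and the longest transcript were chosen after seeing the data. Members and lists were chosen with earlier results of these data known. Named genes are the 10 members and, in each list, those past 2-fold and the highest and lowest; Casc5 and Star were named after their values were seen. Size rules and intervals were tested on data simulated with Poisson counting error alone. Such data cannot show how they behave under PCR copying or variation between pools. Tools were edgeR 4.0.16 in R 4.3.3, and scipy 1.17.1, pandas 2.3.3, matplotlib 3.10.9, statsmodels 0.14.6 and numpy 2.4.6 in Python 3.11.15.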

Additional observations from a re-analysis of the deposited data

How the results depend on the processing

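Bub1 and Bub1b stayed at least 2-fold higher in siDnmt1 and Bub3 at least 2-fold lower in all 11 alternatives at the 2-fold rule, with log2 ratios of 1.86 to 2.13, 1.77 to 1.98 and -1.94 to -1.71. Fzr1 stayed at least 2-fold lower (-2.10 to -1.55) in the 10 alternatives that kept it, but its mean lies under 100 counts, so that minimum left 1 gene lower. At a 4-fold threshold 1 of the 10 genes was higher (Bub1) and 0 were lower. Mad1l1 changed sign in 4 of 11 alternatives, and no other gene of the 10 did. The log2 ratio shifted beyond the counting interval in 3 alternatives for Cdc20 and in 2 for Incenp. Over all genes, 1682 were at least 2-fold higher and 2122 lower without the filter, 395 and 482 at a mean of at least 100, and 193 and 330 at 4-fold. Of the named partners past 2-fold, Zwilch fell short of 2-fold in 1 alternative (equal totals without Rn45s), Ppp2r5a in 3 (that scaling, a pseudocount of 20 and the GC trend) and Sgol1 in 5 (pseudocount 20, equal totals and the 3 trends), while Espl1 passed it in 4. No paired analysis was possible because each group has 1 library, and for the same reason no replicate could be left out. The list of the passenger complex and cohesion had a median log2 ratio of 0.12, and of -0.32 at a mean of at least 100, which keeps fewer genes. Among the named genes past 2-fold, Fzr1, Gmnn and Anapc11 rest on the fewest counts in siDnmt1, 26, 21 and 9.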
